A study of Mus musculus with 8 samples.

Results

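The core cardiac transcription factors are the regulators that together set the gene programme of heart muscle cells. The 10 genes described here are Gata4, Gata6, Nkx2-5, Mef2a, Mef2c, Mef2d, Hand1, Hand2, Tbx20 and Myocd, chosen by name from the 33249 genes of the deposited table, and each name matched 1 gene. Of these, 9 reached a mean of 0.5 FPKM (fragments scaled to gene length and library size) over the libraries, as 14028 of all genes did, and were tested. Hand1 did not and is given as counts.

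These proteins act by binding DNA near each other and by binding one another. GATA4 and GATA6 are zinc finger proteins, NKX2-5 is a homeodomain protein, TBX20 is a T-box protein, MEF2A, MEF2C and MEF2D are MADS-box proteins, and HAND1 and HAND2 are basic helix-loop-helix proteins. MYOCD, or myocardin, does not bind DNA itself but is a coactivator of serum response factor (SRF). In the embryo they specify cardiac cells and shape the chambers, and in the adult heart most of them are still transcribed in cardiomyocytes, with GATA4, GATA6 and HAND2 also made in stromal cells of the heart.

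Poly(A) RNA of mouse myocardium was sequenced in 8 libraries, 2 per group, with the group names CKO-MI, CKO-Sham, fl/fl-MI and fl/fl-Sham taken from the labels. All mice carried floxed Piezo1 alleles. CKO mice also carried Myh6-MerCreMer, a Cre recombinase flanked by parts of the oestrogen receptor that is driven by the Myh6 promoter of cardiomyocytes and is activated by tamoxifen, whereas fl/fl mice were littermates without this transgene. Tamoxifen was given at 75 mg/kg per day for 5 days from 4 weeks of age, and whether the fl/fl mice also received it is not given in the sources used here. At 8 weeks the left anterior descending artery was ligated permanently to cause myocardial infarction (MI), or sham surgery was done without ligation, and the MI hearts were taken at day 42. The sex of the mice, the sampled region of the myocardium, and whether each library was made from a separate animal are not given, so the p-values measure the spread between these samples, which may be technical.

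The deposited counts summed to between 73821747 and 88117573 per library. Mitochondrially encoded genes took 43.1% to 46.4% of them after sham surgery but 19.9% to 24.2% after MI, which lowers the share left for all other genes in the sham libraries. Values between libraries are therefore given as CPM, counts scaled to a library size normalised by the trimmed mean of M-values (TMM). Piezo1, the targeted gene, had 72.2, 82.0, 76.7 and 88.3 CPM in the sham libraries (fl/fl 1 and 2, then CKO 1 and 2), and 53.5, 64.8, 56.3 and 64.6 CPM in the MI libraries in the same order. It was not lower in the libraries labelled CKO (log2 fold change 0.03 after MI and 0.10 after sham surgery, standard error 0.16 for both, edgeR adjusted p = 0.972 and adjusted p = 1). A gene-level count also covers exons outside the floxed part and the other cell types of the tissue. Esr1, part of whose sequence lies in the transgene, was at 331 CPM in fl/fl-MI 2, at 707 in CKO-MI 1 and at 402 CPM in CKO-MI 2, against 5.52 to 8.36 CPM in all sham libraries and in fl/fl-MI 1. Esr1 thus went against the label of fl/fl-MI 2 and of both CKO-Sham libraries, and every direction between genotypes below rests on the labels as deposited. It also passed in MI against sham (log2 5.46, standard error 1.05, edgeR adjusted p = 0.00734). The MI contrasts below are therefore not free of this difference, and its part in them was not tested. The summed level of 8 atrial marker genes was 9508 CPM in fl/fl-MI 2 against 135 to 358 CPM elsewhere. In that library Bmp10 had 3834, Myl4 2810, Myl7 1157 and Dkk3 1081 CPM, while Clec3b (34.5) and Nr2f2 (13.4 CPM) lay below their sham ranges. Dkk3 was also at 105 to 264 CPM in the other MI libraries, against at most 38.9 CPM in sham. Results that rest on fl/fl-MI 2 are given with and without it.

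Compared by level per length within a library, the order of the 10 genes was stable among the sham hearts. In the 4 sham libraries Mef2d was highest with 14.2 to 17.0 FPKM, followed in each by Nkx2-5 with 11.1 to 15.1 FPKM. Next came Gata4 (7.24 to 8.61), Hand2 (7.14 to 9.68) and Mef2a (7.83 to 8.24 FPKM), whose ranges overlapped. Gata6 (at most 4.19), Mef2c (2.95 to 3.10), Tbx20 (2.24 to 2.84) and Myocd (0.83 to 1.51 FPKM) followed without overlap, and Hand1 had at most 0.13 FPKM. In the 4 MI libraries Nkx2-5 (22.2 to 31.7 FPKM) and Mef2d (23.2 to 27.1 FPKM) held the first 2 places, and Gata4 came next in each. Tbx20, in place 8 of every sham library, took places 4 to 6 in the MI libraries with 12.8 to 17.4 FPKM (Mef2a 10.6 to 14.9, Hand2 9.40 to 12.1 and Gata6 8.12 to 14.7 FPKM), and did not overlap Gata4 (17.9 to 25.1 FPKM). Myocd (4.24 to 9.36 FPKM) and Mef2c (2.68 to 4.66 FPKM) came after them. FPKM is divided by a gene's whole exon length. Summing the FPKM of each gene's transcripts instead changed this order. In the sham libraries it put Mef2a first with 21.1 to 22.2 FPKM, and Mef2c (8.67 to 9.82 FPKM) and Gata6 (8.31 to 8.83 FPKM) then overlapped Gata4 and Hand2. After MI it put Mef2c at 12.4 to 18.5 FPKM, in places 6 to 8.

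MI was followed by higher levels of 4 of the 9 tested factors, namely Tbx20, Myocd, Gata4 and Gata6, and none fell. The contrast was the average of the MI effects in fl/fl and CKO hearts, tested with edgeR's quasi-likelihood test at a Benjamini-Hochberg adjusted p under 0.05. Of all tested genes 40.4% passed in either direction and 22.0% were higher, so that 4 of 9 (44.4%) was close to the share among all genes, while all 4 moved the same way. In the same 4 genes every MI library lay above every sham library, which held for 20.9% of all genes. The median log2 fold change of the 9 factors was 0.48, against 0.03 over all genes. Without fl/fl-MI 2 these medians were 0.27 and 0.02. The factors were chosen with earlier results of these data known, so this is a description and not a test of the set. Since this is bulk tissue, a change in the number of cells of a type and a change in RNA per cell cannot be told apart.

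**Figure D1:**
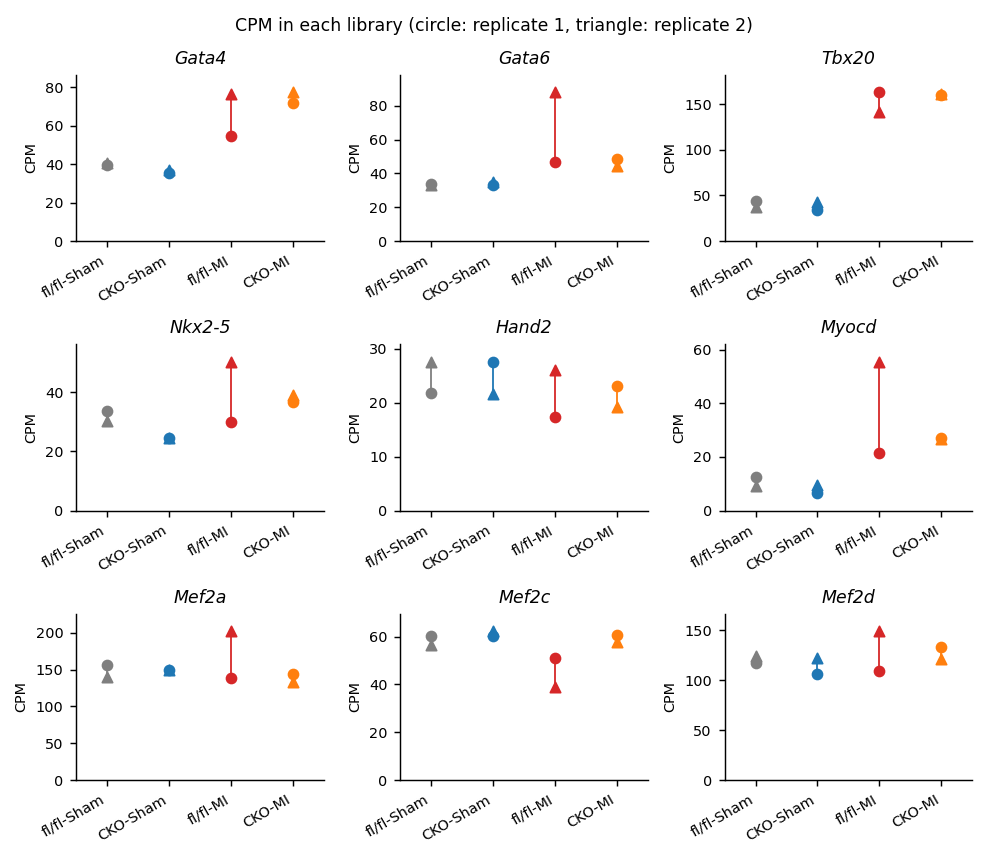
Normalised counts (CPM, vertical axes, from 0) of the 9 tested factors in each of the 8 libraries, by group. The circle is replicate 1 and the triangle is replicate 2. Tbx20, Myocd, Gata4 and Gata6 lay higher in every MI library than in every sham library, and fl/fl-MI 2 stood apart among the MI libraries for Gata6, Myocd, Mef2a and Tbx20.

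Tbx20 is a T-box factor that keeps adult cardiomyocytes functional and represses other T-box genes. Its levels were 44.3 and 36.9 CPM in fl/fl-Sham, 33.6 and 42.9 in CKO-Sham, 163 and 141 in fl/fl-MI, with 160 and 161 CPM in CKO-MI. Every MI library lay far above every sham library, and the MI libraries were close to each other, with fl/fl-MI 2 the lowest. The fold change was 3.97 (log2 1.99, standard error 0.13, edgeR adjusted p = 4e-04). It was 3.75-fold in fl/fl and 4.20-fold in CKO hearts (edgeR adjusted p = 0.00352 and adjusted p = 0.00357). Across the scaling and test alternatives its log2 fold change was 1.91 to 2.52, and 1.91 to 2.08 with each library left out in turn. The call in CKO hearts was lost without CKO-Sham 1 (log2 1.91, edgeR adjusted p = 0.0511). The transcript Tbx20-201, with 8 exons, made up 98.5% of its transcript FPKM on average. The window around its start site (250 bases before and 50 after, RefSeq, GRCm38.p6, chr9:24774254-24774553, minus strand) is shown because Tbx20 changed most among the factors. It was searched on both strands for the GATA motifs AGATAA and TGATAA, the NKX2-5 motif AAGTG, the T-box motif AGGTGT, the MEF2 motif CTANNNNTAG and the E-box CATCTG of HAND and other helix-loop-helix proteins, and held none of them, so that no letter is in capitals.
Tbx20: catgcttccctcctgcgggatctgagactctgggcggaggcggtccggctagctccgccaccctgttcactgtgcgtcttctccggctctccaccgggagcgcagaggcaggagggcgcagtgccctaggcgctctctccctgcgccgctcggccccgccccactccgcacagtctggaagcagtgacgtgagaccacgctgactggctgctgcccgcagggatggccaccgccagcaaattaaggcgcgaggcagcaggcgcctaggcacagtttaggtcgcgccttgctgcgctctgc

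Myocd, the muscle coactivator of SRF, had the next largest rise. Its levels were 12.6 and 9.05 CPM in fl/fl-Sham, 6.62 and 9.41 in CKO-Sham, 21.3 and 55.4 in fl/fl-MI, with 27.0 and 26.6 CPM in CKO-MI. The groups did not overlap, and fl/fl-MI 2 was the highest of all by a wide margin. The fold change was 3.44 (log2 1.78, standard error 0.31, edgeR adjusted p = 0.00497). Without fl/fl-MI 2 the log2 fold change was 1.36, and it passed with each of the 8 libraries left out (highest adjusted p = 0.0304 in edgeR). Within each genotype it was 1.83 (fl/fl) and 1.74 (CKO), with edgeR adjusted p = 0.0319 and adjusted p = 0.0293, and each of these calls was lost when any of 6 libraries was left out. In fl/fl hearts the log2 fold change was 0.98 without fl/fl-MI 2 and 2.33 without fl/fl-MI 1.

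Gata4 and Gata6, paralogs that bind the same sequence and can stand in for each other in the developing heart, both rose. Gata4 had 39.6 and 40.8 CPM in fl/fl-Sham, 35.2 and 37.2 in CKO-Sham, 54.7 and 76.3 in fl/fl-MI, with 71.7 and 77.4 CPM in CKO-MI. Its groups did not overlap, and the fold change was 1.83 (log2 0.87, standard error 0.13, edgeR adjusted p = 0.0026). Gata6 had 33.9 and 33.1 CPM in fl/fl-Sham, 32.9 and 34.8 in CKO-Sham, 46.7 and 87.9 in fl/fl-MI, with 48.6 and 44.2 CPM in CKO-MI. The 4 sham libraries of Gata6 lay within 2 CPM of each other, and 3 of the MI libraries lay only modestly above them, whereas fl/fl-MI 2 was far above the next highest. Its fold change was 1.66 (log2 0.73, standard error 0.19, edgeR adjusted p = 0.0221), and without fl/fl-MI 2 the log2 fold change fell to 0.47 (adjusted p = 0.00331). The Gata6 call was lost, at adjusted p = 0.0563 to adjusted p = 0.0819 in edgeR, when the fit lacked a single sham or CKO-MI library, for each of these 6. The ratio of Gata4 to Gata6 counts, as normalised, was 1.07 to 1.23 in the sham libraries, 1.17 in fl/fl-MI 1, 0.868 in fl/fl-MI 2, 1.47 in CKO-MI 1 and 1.75 in CKO-MI 2. Of Gata4, transcripts Gata4-202 (59.9% of the FPKM on average) and Gata4-201 (37.6%) are nearly the same in length and coding part.

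Nkx2-5, the homeodomain factor of the early heart field, had 33.7 and 30.2 CPM in fl/fl-Sham, 24.4 and 24.5 in CKO-Sham, 29.8 and 50.2 in fl/fl-MI, with 36.8 and 38.9 CPM in CKO-MI. The fl/fl-MI 1 library lay among the sham libraries, and the other MI libraries lay above all of them. Its log2 fold change of 0.48 (standard error 0.16) did not pass (edgeR adjusted p = 0.0548). It passed in DESeq2 (0.46, adjusted p = 0.0407) and in edgeR without fl/fl-MI 2 (0.27, adjusted p = 0.0355).

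Hand2 had 21.8 and 27.6 CPM in fl/fl-Sham, 27.6 and 21.7 in CKO-Sham, 17.3 and 26.1 in fl/fl-MI, with 23.1 and 19.3 CPM in CKO-MI. The groups overlapped (log2 fold change -0.20, standard error 0.17, edgeR adjusted p = 0.383), and the sign turned with 3 of the scalings, to between 0.04 and 0.35. Hand2 shares 3251 of the 3651 bases of its span, introns included, with Hand2os1, a noncoding gene on the opposite strand. That gene had 1636 to 3592 counts per library. Strand use in the counting is not given in the sources used here, so reads of the pair may have been split between them. Hand2os1 had 26.9 to 34.0 CPM in the sham and 26.4 to 39.1 CPM in the MI libraries (log2 fold change 0.18, standard error 0.14, edgeR adjusted p = 0.337). The Hand2 start window (RefSeq, GRCm38.p6, chr8:57320733-57321032, plus strand) is shown because it held the most motif matches among the members' windows. In capitals and in order, these are the E-box, the NKX2-5 motif on the reverse strand and both GATA motifs, the one that begins with A on the reverse strand. Over 32851 start windows of the same length, 17.2% held the E-box, 46.4% the NKX2-5 motif, 11.2% the GATA motif that begins with A and 9.05% the one that begins with T, on either strand. A match is a description of letters and not a bound site.
Hand2: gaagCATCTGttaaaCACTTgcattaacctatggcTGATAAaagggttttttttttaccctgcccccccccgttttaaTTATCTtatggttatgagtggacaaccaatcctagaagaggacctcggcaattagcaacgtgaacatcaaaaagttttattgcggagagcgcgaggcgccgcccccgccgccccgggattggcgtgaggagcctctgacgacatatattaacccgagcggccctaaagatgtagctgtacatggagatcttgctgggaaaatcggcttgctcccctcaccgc

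Hand1, which marks the left ventricle and outer curvature of the embryonic heart, was near the limit of detection. It had 0 and 20 counts in fl/fl-Sham, 4 and 12 in CKO-Sham, 0 and 4 in fl/fl-MI, and 0 and 0 in CKO-MI. At about 4 counts per read pair, as the pile-up of low counts at 4 gives it (on average 1106 genes at a count of 4, 469 at 3 and 326 at 5), this is at most 5 read pairs in a library, and a difference was not detectable at this depth.

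Mef2a, Mef2c and Mef2d are the MADS-box factors that respond to calcium signals through class IIa histone deacetylases. None of the 3 passed over both genotypes with all libraries. Mef2a had 157 and 140 CPM in fl/fl-Sham, 150 and 150 in CKO-Sham, 139 and 202 in fl/fl-MI, with 144 and 133 CPM in CKO-MI (log2 fold change 0.04, standard error 0.14, 95% interval -0.29 to 0.37). Only fl/fl-MI 2 lay outside the range of the sham libraries on the high side. Mef2d had 117 and 124 CPM in fl/fl-Sham, 106 and 122 in CKO-Sham, 109 and 149 in fl/fl-MI, with 133 and 121 CPM in CKO-MI (log2 fold change 0.13, standard error 0.13, 95% interval -0.18 to 0.43). Mef2c had 60.2 and 56.4 CPM in fl/fl-Sham, 60.1 and 62.2 in CKO-Sham, 50.9 and 38.9 in fl/fl-MI, with 60.5 and 57.9 CPM in CKO-MI (log2 fold change -0.21, standard error 0.11, 95% interval -0.47 to 0.05). Here both fl/fl-MI libraries lay below all others, and the CKO-MI libraries lay within the sham range. Without fl/fl-MI 1 the Mef2c change was -0.33 and passed (edgeR adjusted p = 0.0162). Of the summed MEF2 counts, Mef2c took 17.0% to 19.0% in 7 libraries and 9.97% in fl/fl-MI 2.

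The Mef2a start window (RefSeq, GRCm38.p6, chr7:67372809-67373108, minus strand) is shown because it alone among the members' windows held the MEF2 motif CTANNNNTAG (capitals), which 3.69% of all windows held. The windows of Mef2d and Nkx2-5, like that of Tbx20, held none of the motifs searched.
Mef2a: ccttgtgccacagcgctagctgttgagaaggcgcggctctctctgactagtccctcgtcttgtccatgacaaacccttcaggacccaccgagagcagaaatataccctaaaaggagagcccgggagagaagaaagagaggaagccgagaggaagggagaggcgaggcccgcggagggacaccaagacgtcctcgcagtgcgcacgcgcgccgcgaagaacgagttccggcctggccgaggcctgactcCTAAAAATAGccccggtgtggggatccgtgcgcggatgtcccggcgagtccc

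**Figure D2:**
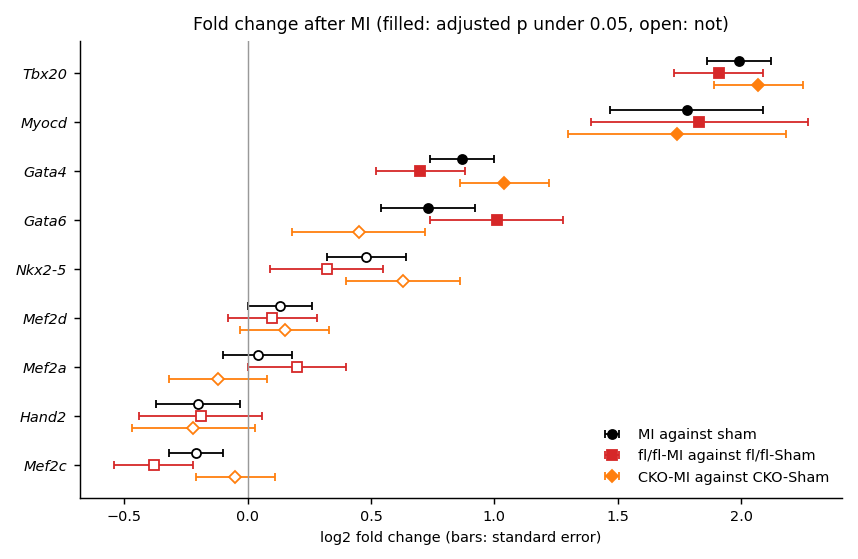
Log2 fold change (horizontal axis) of each tested factor after MI over both genotypes (black circles), in fl/fl (red squares) and in CKO hearts (orange diamonds), with bars of 1 standard error. Filled symbols passed an adjusted p under 0.05. Tbx20, Myocd and Gata4 passed in all 3 contrasts and Gata6 in all but CKO.

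Within fl/fl hearts 4 of 9 factors rose (Tbx20, Myocd, Gata6 and Gata4, with log2 fold changes of 1.91, 1.83, 1.01 and 0.70), where 18.5% of all genes passed. Without fl/fl-MI 2, which leaves 1 fl/fl-MI library, Gata6 was at 0.48 and Gata4 at 0.44, and without fl/fl-MI 1 Gata6 was at 1.37. In CKO hearts 3 of 9 rose (Tbx20 2.07, Myocd 1.74 and Gata4 1.04), where 24.7% of all genes passed. The Gata6 change was 0.45 in CKO hearts (standard error 0.27, edgeR adjusted p = 0.253), and the difference between the genotypes in its MI effect did not pass (interaction log2 -0.55, standard error 0.38, edgeR adjusted p = 0.733). The interaction passed for 0 of 9 factors in edgeR (0.0% of all genes) and in DESeq2, and for 0 of 9 in edgeR at an unadjusted p under 0.05 (8.49% of all genes). Apart from Tbx20, the calls within fl/fl hearts depended on the pooled spread. With only the fl/fl libraries in the fit 1 of 9 passed (1.42% of all genes), namely Tbx20. The calls of Gata4, Gata6 and Myocd were also lost when any 1 of the sham and CKO-MI libraries was left out. The share of all genes in those fits is not given.

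The scale matters for the factors with small changes. With limma on log2(FPKM + 1), where the median of all genes was 0.41 and 89.4% of the called genes were higher (54.6% with TMM), 7 of 9 factors and 56.1% of all genes passed. The log2(FPKM + 1) changes of Mef2d (0.65), Mef2a (0.54) and Nkx2-5 (0.97) then passed, and those of Mef2c and Hand2 turned to 0.27 and 0.32 without passing. With libraries scaled to the summed cardiomyocyte markers, where the median of all genes was 0.31 and 77.7% of the called genes were higher, 5 of 9 factors and 32.2% of all genes passed. Tbx20, Myocd, Gata4 and Gata6 passed with every scaling tried, at log2 fold changes of 0.65 or more.

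Markers of the other cells of the heart moved with MI. The 8 fibroblast markers summed to 1296 to 1378 CPM in the sham and 2033 to 4890 CPM in the MI libraries, and 7 of 8 passed as higher. The 7 endothelial markers fell from 1542 to 1889 CPM to 585 to 966 CPM, with 6 of 7 lower. The 7 smooth muscle and pericyte markers had 1351 to 1473 CPM in sham and 514 to 708 CPM in MI libraries, with 3 of 7 lower. Rgs5 alone had 874 to 1102 CPM in sham and 203 to 401 CPM in MI libraries. Acta2, Tagln, Cnn1 and Pdgfrb did not pass (log2 0.14, -0.06, 0.06 and -0.14). Epicardial markers ranged from 34.8 to 45.3 CPM and from 37.3 to 204 CPM, with 4 of 6 higher, and macrophage markers from 454 to 505 CPM and from 439 to 1130 CPM, with 3 of 7 higher. Endocardial markers ranged from 141 to 433 CPM and from 146 to 562 CPM, with 2 of 5 higher. Without fl/fl-MI 2 the highest MI sum was 211 CPM for endocardial, 104 for epicardial and 731 CPM for endothelial markers. The endocardial sums then lay within the sham range. The lowest MI sum was then 2686 CPM for fibroblast and 700 CPM for smooth muscle and pericyte markers. The 12 cardiomyocyte markers, which place all 8 libraries as heart muscle, had 24137 to 28887 CPM in sham and 17598 to 29299 CPM in MI libraries, with 2 higher and 5 lower. No marker of any list was at 0 in every library. The part of these shifts in the levels of Tbx20, Myocd, Gata4 and Gata6 was not tested.

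CKO-MI libraries were set against fl/fl-MI libraries as labelled, which cannot by itself address the loss of Piezo1. Gene-level Piezo1 did not differ between them (log2 0.03, standard error 0.16, edgeR adjusted p = 0.972), and Esr1 went against the label of fl/fl-MI 2. With all libraries 0 of 9 factors passed in edgeR (0.0% of all genes), in DESeq2 and in limma. At an unadjusted p under 0.05 edgeR called 1 of the 9 (Mef2c), against 8.31% of all genes. The largest differences were those of Gata6 (log2 -0.54, standard error 0.27, edgeR adjusted p = 0.651), Myocd (-0.52, standard error 0.42, adjusted p = 0.776) and Mef2c (0.40, standard error 0.16, adjusted p = 0.578). Tbx20 differed by 0.08, with a 95% interval from -0.34 to 0.49.

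These values turned on the fl/fl-MI libraries. Without fl/fl-MI 1, which leaves the library with the high atrial and Esr1 values, 3 of 9 factors and 11.9% of all genes passed in edgeR, the factors being Gata6 (-0.90, adjusted p = 0.00871), Myocd (-1.03, adjusted p = 0.0376) and Mef2c (0.62, adjusted p = 0.03). Without fl/fl-MI 2, 0 of 9 passed (0.192% of all genes), and the differences were -0.01, 0.33 and 0.22. In both fits the lone library was assumed to vary like the other groups. Nkx2-5 went from -0.39 to 0.34 and Hand2 from -0.28 to 0.29 between the same fits. The atrial marker sum of 9508 CPM in fl/fl-MI 2 moved with these differences, and its part in them was not tested.

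**Figure D3:**
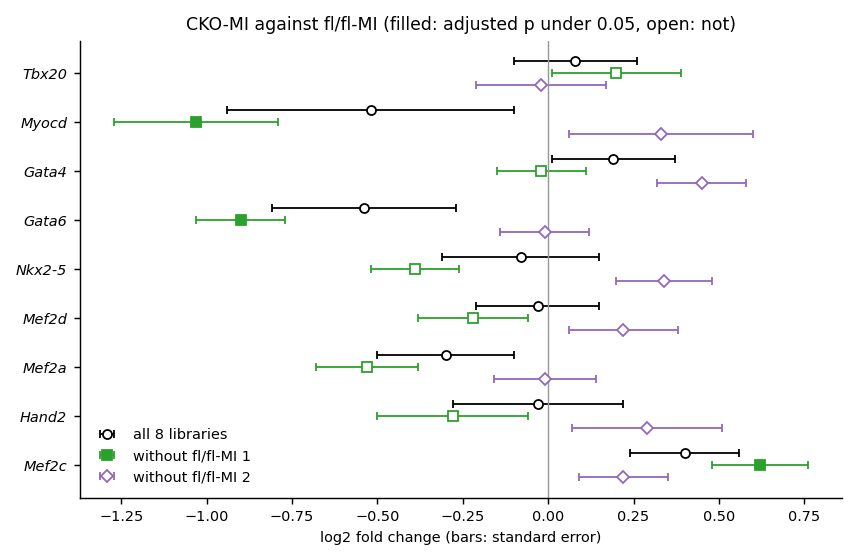
Difference of CKO-MI from fl/fl-MI as a log2 fold change (horizontal axis) with all libraries (black circles), without fl/fl-MI 1 (green squares) and without fl/fl-MI 2 (purple diamonds), with bars of 1 standard error and filled symbols for an adjusted p under 0.05. Gata6, Myocd and Mef2c passed only without fl/fl-MI 1, and none passed without fl/fl-MI 2.

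The sham comparison by label has the same limit, with Piezo1 at log2 0.10 (standard error 0.16). After sham surgery 0 of 9 factors differed by genotype label in edgeR (0.00713% of all genes), DESeq2 or limma. At an unadjusted p under 0.05 edgeR also called 0 of 9 (3.89% of all genes). The differences ranged from -0.43 (Myocd, standard error 0.43) to 0.07 (Mef2c, standard error 0.16). For Nkx2-5, 24.4 and 24.5 CPM in CKO-Sham lay below 33.7 and 30.2 CPM in fl/fl-Sham (log2 -0.39, standard error 0.23, 95% interval -0.94 to 0.16).

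The transcripts of the members add a layer that the gene counts do not show. The 10 genes have 68 annotated transcripts, of which 18 made up at least 5% of their gene's transcript FPKM on average and 30 could be tested for a change in use. Nkx2-5 has a 2-exon transcript, Nkx2-5-201, that starts at 26841565 on chromosome 17, and a 3-exon transcript, Nkx2-5-202, that starts upstream at 26845009 and reads towards the same coding start. The share of Nkx2-5-202 was 11.5% and 6.6% in fl/fl-Sham, 3.7% and 15.0% in CKO-Sham, 29.5% and 34.3% in fl/fl-MI, and 27.5% and 29.9% in CKO-MI. Every MI library lay above every sham library, at 30.3% ± 2.87 (SD, n = 4) against 9.20% ± 5.03 (SD, n = 4). The test of its use relative to the rest of the gene, over all transcripts, gave a log2 change of 1.21 that did not pass (edgeR adjusted p = 0.512). How many of all transcripts show such a gap between groups was not computed, so a change of start site is not established. The RefSeq start window available for Nkx2-5 is that of Nkx2-5-201 (GRCm38.p6, chr17:26841516-26841815, minus strand). It is shown because the 2 transcripts differ in their annotated start, and it held none of the motifs searched.
Nkx2-5: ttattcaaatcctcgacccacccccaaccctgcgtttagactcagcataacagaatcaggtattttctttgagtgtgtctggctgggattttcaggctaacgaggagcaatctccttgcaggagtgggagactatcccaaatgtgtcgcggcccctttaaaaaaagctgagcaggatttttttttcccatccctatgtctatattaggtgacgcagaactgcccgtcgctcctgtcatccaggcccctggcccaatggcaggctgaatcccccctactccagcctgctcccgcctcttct

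The main transcript of Mef2d, Mef2d-201, had 83.6% to 88.8% of the gene's transcript FPKM in the sham and 63.4% to 77.7% in the MI libraries. The test of its use relative to the rest of the gene gave a log2 change of -0.08 (edgeR unadjusted p = 0.843). Mef2d-202 went from 1.5% to 2.6% up to 3.6% to 11.0%, and Mef2d-203 from at most 2.0% to 5.0% to 8.9%. Neither change in use passed (log2 1.41 and 2.01, edgeR adjusted p = 0.537 and adjusted p = 0.196). How many of all transcripts show such gaps was not computed here either, so a switch between Mef2d transcripts is not established. Of the 30 transcripts 2 passed (background 1.64%), both of them small parts of their genes. Gata6-206, with 2 exons, went from at most 0.2% to 0.6% to 4.6% of its gene (log2 3.27, edgeR adjusted p = 0.0118), and Mef2a-203 from at most 0.2% to 0.4% to 1.2% (log2 2.59, edgeR adjusted p = 0.022). With transcripts under a mean of 0.5 FPKM left out, neither was tested and 0 passed. The shares of the Mef2c transcripts varied between replicates as much as between groups (Mef2c-212 from 0.8% to 65.5% among the sham libraries) and are not compared.

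**Figure D4:**
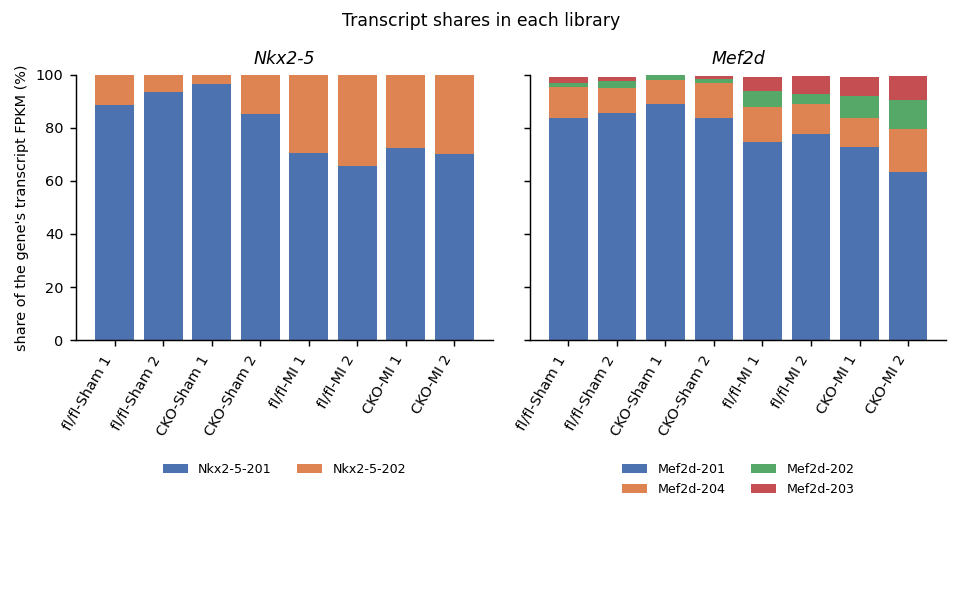
Share of each gene's transcript FPKM in percent (vertical axis, from 0) taken by the transcripts of Nkx2-5 (left) and the 4 main transcripts of Mef2d (right) in each library. The upstream-start transcript Nkx2-5-202 took 3.7% to 15.0% in the sham and 27.5% to 34.3% in the MI libraries. Mef2d-201 had a lower share in every MI library than in every sham library. The change in use did not pass for either transcript.

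Among 15 tested DNA-binding partners of the core factors (of 17 listed, with Isl1 and Mef2b too low), 6 passed after MI (40.0%, against 40.4% of all genes), 2 higher and 4 lower, at a median of 0.34. The higher partners were Srf, the DNA-binding partner of myocardin, with 28.2 to 34.2 CPM in sham and 55.1 to 93.6 CPM in MI libraries (log2 1.18, standard error 0.17, edgeR adjusted p = 0.00259), and Gata5. Gata5 had at most 0.642 CPM in the sham libraries and 1.99 (fl/fl-MI 1), 9.84 (fl/fl-MI 2), 0.284 (CKO-MI 1) and 1.26 CPM (CKO-MI 2) after MI, so that its groups overlapped and its fitted log2 change of 3.39 (edgeR adjusted p = 0.045) was lost in 6 of the 8 fits with a library left out, at 2.61 without fl/fl-MI 2 (adjusted p = 0.0629) and up to 7.22 without CKO-Sham 2, where it passed. The lower partners included 2 T-box repressors of the conduction system and a ventricular homeobox gene. Tbx2 had 17.1 to 21.6 CPM in sham and 6.00 to 7.68 CPM in MI libraries (log2 -1.53), Tbx3 18.3 to 30.3 and 6.10 to 16.2 CPM (-1.31), and Irx4 25.0 to 26.7 and 5.95 to 18.1 CPM (-1.36), with edgeR adjusted p between 0.000731 and 0.00389 and no overlap. Without fl/fl-MI 2, 9 of the 15 passed, and 50.7% of all genes.

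Of 18 cofactors 7 passed (38.9%, against 40.4% of all genes), 4 higher and 3 lower, at a median of 0.08. Ankrd1, a stretch-responsive nuclear and sarcomeric protein, had 238 to 619 CPM in sham and 2475 to 5181 CPM in MI libraries (log2 3.43, standard error 0.31, edgeR adjusted p = 0.000696). Smyd1, a muscle methyltransferase, rose by 1.04 and Zfpm2, the zinc finger partner of GATA4, by 0.64 on the log2 scale (edgeR adjusted p = 0.00689 and adjusted p = 0.0169). Hdac7 and Hdac5, class IIa deacetylases that repress MEF2 proteins, changed by -0.91 and -0.44, and Prdm16 by -0.87 (edgeR adjusted p = 0.00167, 0.00832 and 0.012). These 3 lower calls were lost when libraries were scaled to cardiomyocyte markers and with limma on log2(FPKM + 1), where Hdac5 turned to 0.12. With each of the 8 libraries left out in turn, the call of Zfpm2 was lost in 4 fits and that of Prdm16 in 1. Without fl/fl-MI 2, where 50.7% of all genes passed, 13 of the 18 did, 5 higher and 8 lower.

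The target genes that these factors are known to activate in cardiomyocytes did not move in 1 direction. Of 26, 18 passed after MI (69.2%, against 40.4% of all genes), 13 higher and 5 lower, at a median of 0.58. The list was chosen with earlier results of these data known, so these shares are a description and not a test of enrichment. The natriuretic peptide genes Nppa and Nppb, classical targets of GATA4, NKX2-5 and TBX5, had 106 to 504 and 16.3 to 78.5 CPM in sham and 2520 to 11746 and 197 to 292 CPM in MI libraries (log2 4.50 and 2.79, edgeR adjusted p = 0.00231 and adjusted p = 0.000689). Xirp2, a MEF2A target at the intercalated disc, had 151 to 301 CPM in sham libraries and 2775 (fl/fl-MI 1), 241 (fl/fl-MI 2), 3179 (CKO-MI 1) and 1513 CPM (CKO-MI 2) after MI (log2 2.92, edgeR adjusted p = 0.0175). Only fl/fl-MI 2 kept the sham level, and the change was 3.36 without it and 1.58 without fl/fl-MI 1. The contractile and metabolic genes Ckm, Myl2 and Tnni3 changed by -1.28, -1.22 and -1.19 (edgeR adjusted p = 0.00722, 0.0156 and 0.0203), with every MI library below every sham library. Myl2 is a ventricular gene and was lowest, at 801 CPM, in fl/fl-MI 2. Ckm, Tnni3, Tnnc1, Tnnt2, Myl3, Ryr2, Pln and Mb of these targets are also on the cardiomyocyte marker list, so both tallies count them. With each of the 8 libraries left out in turn, the call of Xirp2 was lost in 5 fits, that of Tnni3 in 4 and that of Myl2 in 2.

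Of 8 smooth muscle targets of myocardin and SRF 3 passed (37.5%, against 40.4% of all genes), with Synpo2 higher (35.0 to 62.6 CPM in sham and 93.1 to 130 CPM in MI libraries, log2 1.10, edgeR adjusted p = 0.0034) and Myh11 and Mylk lower (log2 -0.92 and -0.81, edgeR adjusted p = 0.0476 and adjusted p = 0.0086). While Myocd was 3.44-fold higher, the median of these 8 genes was -0.09, and the part of smooth muscle cell numbers in this was not tested. Acta2, Tagln and Cnn1 of this list are also smooth muscle markers. Myh11 is also a smooth muscle marker, and its call was lost in 6 of the 8 fits with a library left out, at -0.74 without fl/fl-MI 2 (adjusted p = 0.0637), and with the replicate number as a block (-0.87, adjusted p = 0.0795). Both lower calls, of Myh11 and Mylk, were lost with libraries scaled to cardiomyocyte markers. Of Hand2os1 and Gata6os, the noncoding genes listed with Hand2 and Gata6, neither passed. Gata6os had 3.35 to 4.86 CPM in sham and 3.57 to 9.18 CPM in MI libraries, and fl/fl-MI 2 was the highest, as for Gata6. In none of these lists did a gene pass between CKO-MI and fl/fl-MI or between CKO-Sham and fl/fl-Sham.

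**Figure D5:**
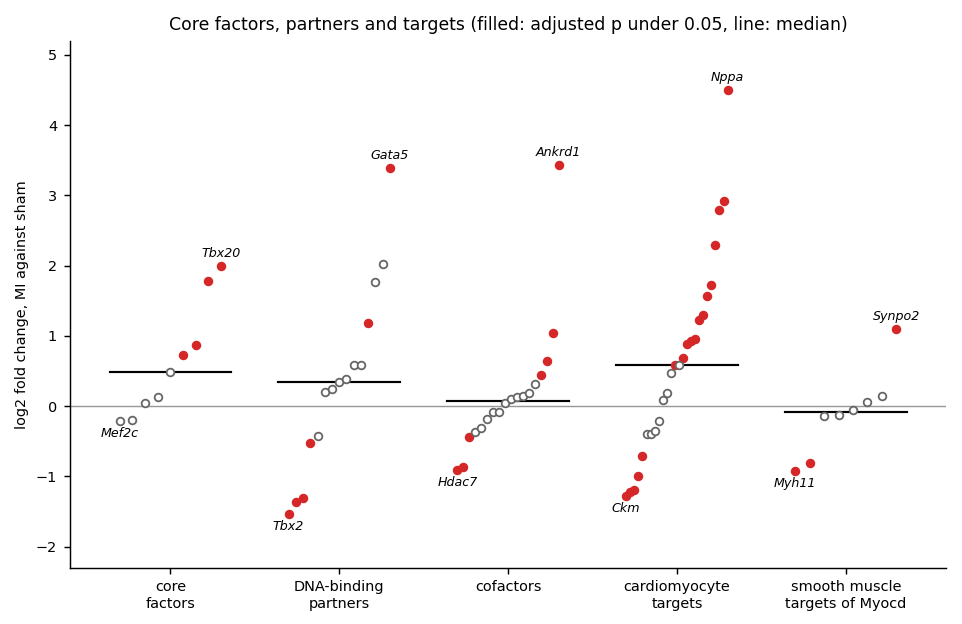
Log2 fold change of MI against sham (vertical axis) for the 9 tested core factors and for the partner, cofactor and target lists, each point a gene, filled where the adjusted p was under 0.05, with the median as a line. The lowest and highest gene of each list is named. The targets spread from -1.28 (Ckm) to 4.50 (Nppa), and the core factors from -0.21 (Mef2c) to 1.99 (Tbx20).

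The genes whose log2 CPM followed each factor most closely over the 8 libraries were ranked by Pearson's r among all tested genes. For Tbx20 they were Pdzrn3, Tmed2 and Rabgap1 (r = 0.996, 0.995 and 0.995), and for Gata4 Arnt, Fam98a and Oxnad1 (0.995, 0.994 and 0.994). For Myocd they were Kidins220, Ncoa4 and Atp11a (0.994, 0.99 and 0.988), for Gata6 Prkag2, Mt2 and Rhbdd2 (0.995, 0.992 and 0.989), and those close to Nkx2-5 included Acad11 and Rrad (0.981 and 0.977). All of these named genes passed after MI, as did Tbx20, Gata4, Myocd and Gata6 but not Nkx2-5, so that the genes named for the first 4 factors share with them a step from sham to MI. For Mef2a, Mef2c, Mef2d and Hand2 the closest genes reached r = 0.978, 0.957, 0.962 and 0.961 and none of the 12 passed. The libraries share depth and composition effects, and no p was computed.

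In the files the genes carry the identifiers ENSMUSG00000021944 (Gata4, chromosome 14 from 63198922 to 63271692), ENSMUSG00000005836 (Gata6, chromosome 18 from 11052064 to 11085635), ENSMUSG00000015579 (Nkx2-5, chromosome 17 from 26838664 to 26845009), ENSMUSG00000031965 (Tbx20, chromosome 9 from 24718138 to 24774284) and ENSMUSG00000020542 (Myocd, chromosome 11 from 65176561 to 65269989). Mef2a (ENSMUSG00000030557) lies on chromosome 7 from 67231163 to 67372858, Mef2c (ENSMUSG00000005583) on chromosome 13 from 83504034 to 83667078, and Mef2d (ENSMUSG00000001419) on chromosome 3 from 88142372 to 88172086. Hand1 (ENSMUSG00000037335) lies on chromosome 11 from 57828705 to 57832818 and Hand2 (ENSMUSG00000038193) on chromosome 8 from 57320983 to 57324633. The coordinates are those of the files and equal GENCODE M21 on GRCm38 for 90.8% of genes. Mef2a overlaps Lysmd4 on the opposite strand over 76168 bases of its span, and Gata6 overlaps 1010001N08Rik over 504 bases. On the same strand Mef2a overlaps Gm44667, which had 76 to 132 counts per library, over 3337 bases. These are overlaps of whole gene spans, introns included, so how far they touch the counts is not known.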

How the data were processed

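Per the labels, 8 libraries of mouse myocardium were grouped by genotype (fl/fl or CKO) and surgery (sham or MI), 2 in each of 4 groups. The authors prepared strand-marked poly(A) libraries and sequenced paired ends, and the submitters' processing notes name cutadapt 1.9 and FastQC. The aligner, counter, build and annotation are not given in the sources used here. The authors deposited whole-number counts per gene and transcript without normalization, and FPKM values scaled to length and library size. Their annotation columns were used only for names and coordinates.

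The main test was edgeR's quasi-likelihood test (edgeR 4.0.16, R 4.3.3) on the deposited counts with TMM, for 14028 genes with a mean of at least 0.5 FPKM, with all 8 libraries in 1 fit and a mean per group. Transcript use was tested with edgeR's diffSpliceDGE over 36446 transcripts. Benjamini-Hochberg adjustment ran over everything tested, and calls were made at an adjusted p under 0.05. Standard errors are the log2 fold change over the root of F, and 95% intervals from the t distribution with the 7.1 degrees of freedom of the fit. Other steps used pandas 2.3.3 in Python 3.11.15. Both tests were tried on simulated data. Alternatives were other normalizations, filters, tests and samples, the replicate number as a block, and each library left out, with DESeq2 1.42.0 and limma 3.58.1.

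The members and lists were chosen with earlier results of these data known. All members were named, and of each other list up to 3 called genes a direction with the largest change. Replicates of a group differed beyond counting noise. Depth was 73821747 to 88117573 counts a library, and p-values beyond counting error rest on 2 libraries a group. Start windows were from RefSeq (GRCm38.p6) and matched 6 members, with no entry used for Gata4, Gata6, Hand1 and Myocd. Proteins were not used here. One gene close to Nkx2-5 is not reported here.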

Additional observations from a re-analysis of the deposited data

Results flagged for a closer look

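Among the 4 MI libraries, a single library stood apart from the other 3 by Dixon's criterion for 4 of the 9 tested factors, and in each it was the library labelled fl/fl-MI 2. Its values were 87.9 CPM for Gata6, 202 CPM for Mef2a and 55.4 CPM for Myocd, each the highest, and 141 CPM for Tbx20, the lowest. The criterion was applied to 18 sets of 4 libraries for the factors, of which chance flags about 1 in 20.

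Among 30 sets of transcript shares, that of Mef2d-202 stood apart in fl/fl-Sham 2 (2.6% of the gene) and that of Mef2c-223 in fl/fl-Sham 1 (20.7%), among the 4 sham libraries.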

How the results depend on the processing

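The rises of Tbx20, Myocd and Gata4 over both genotypes passed under all alternatives run that test them, those leaving out 1 library included (a mean of at least 5 FPKM drops Myocd and Mef2c). The count of factors that passed was 4, 7 with limma on log2(FPKM + 1) or log2(FPKM + 0.1), and 3 to 6 with each library left out (6 without fl/fl-MI 1, of which Mef2c was lower). In fl/fl hearts it was 4, but 7 with either limma setting, 1 with only the libraries compared, and 1 to 6 with each library left out (6 without fl/fl-MI 1, of which Mef2c was lower). In CKO hearts it was 3, but 6 with either limma setting, 5 with only the libraries compared, and 0 to 5 with each library left out (0 without CKO-Sham 1, 1 without CKO-Sham 2). Between CKO-MI and fl/fl-MI it was 0, and 0 to 3 with each library left out. The interaction gave 0, and 0 to 1 (without fl/fl-MI 1). Transcripts passing numbered 2, but 0 at a mean of at least 0.5 FPKM, and 0 to 2 with each library left out. The replicate numbers share only a number (correlations of their differences -0.14 to 0.06 between groups), and with the replicate number as a block 2 factors passed in fl/fl hearts. These counts show how the calls moved with the setting. Of all genes, 56.1% passed with limma on log2(FPKM + 1) over both genotypes and 1.42% in edgeR with only the fl/fl libraries. For most other fits the share of all genes is not given, so those counts are not a result about the factors. The cause of these changes was not tested.

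Signs that turned all belonged to log2 changes that did not pass in edgeR with all libraries, apart from Hdac5 (0.12 and 0.13 with limma). With limma on log2(FPKM + 1) and then log2(FPKM + 0.1), the MI change was 0.27 and 0.34 for Mef2c and 0.32 and 0.35 for Hand2. In fl/fl hearts these were 0.14 and 0.17 for Mef2c and 0.32 and 0.35 for Hand2, and in CKO hearts 0.41 and 0.50 for Mef2c, 0.32 and 0.35 for Hand2, and 0.40 and 0.44 for Mef2a. Scaled to cardiomyocyte markers, Mef2c was 0.07 and Hand2 0.04 over both genotypes, and 0.15 and 0.27 in fl/fl hearts. In CKO-MI against fl/fl-MI Gata4 was then -0.03, Tbx20 -0.19 and Piezo1 -0.19, and in CKO-Sham against fl/fl-Sham Gata4 0.04, Mef2d 0.11 and Tbx20 0.11. At a mean of at least 5 FPKM Mef2a was -0.04 after MI, and without a filter Mef2c was 0.04 in CKO hearts.

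Leaving out each library in turn gave ranges that cross 0 for Mef2a (-0.10 to 0.14) over both genotypes, and in fl/fl hearts for Nkx2-5 (-0.10 to 0.63), Mef2a (-0.09 to 0.42), Mef2d (-0.15 to 0.28) and Hand2 (-0.52 to 0.05). In CKO-MI against fl/fl-MI they were -0.02 to 0.45 for Gata4, -0.39 to 0.34 for Nkx2-5, -0.22 to 0.22 for Mef2d, -0.28 to 0.29 for Hand2, -0.02 to 0.20 for Tbx20, -1.03 to 0.33 for Myocd and -0.08 to 0.18 for Piezo1. In CKO-Sham against fl/fl-Sham they were -0.03 to 0.06 for Gata6, -0.06 to 0.11 for Mef2a, -0.19 to 0.02 for Mef2d, -0.27 to 0.08 for Tbx20, -0.19 to 0.18 for Hand2 and -0.01 to 0.19 for Piezo1.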
